A study of Mus musculus with 21 samples.

Results

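The subject is a module of 39 interferon-stimulated genes in the mouse spinal cord, measured by RNA sequencing after deletion of Tardbp, the gene of the RNA-binding protein TDP-43. The members were listed by name, and a listed gene was kept if it reached a deposited value of at least 5 in at least 3 libraries. All 39 listed genes were kept, out of 25127 genes with a value in each library. Values are the deposited normalized scaled reads per base, which keep no read totals, so the depth of each library is unknown. Between 20366 and 20880 genes were above 0 in a P21 library, and between 19645 and 20138 in a P60 library.

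Interferons are secreted when a cell senses foreign or misplaced nucleic acid. Type I interferon binds its receptor on neighbouring cells, the kinases Jak1 and Tyk2 activate Stat2, and it joins Irf9 in a complex that binds interferon-stimulated response elements in the promoters of the module's genes. The products sense viral RNA or DNA, degrade RNA, block translation or entry of viruses, or tune the response itself. In the central nervous system microglia, the resident macrophages, are a well-known site of such expression, and Cnp, whose Cre allele made the deletion here, is a gene of oligodendrocytes, the myelinating cells.

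All mice were of the C57BL/6 strain. At P21 there were 4 controls carrying Tardbp-fl/fl without Cre, 4 mice with Cnp-Cre and Tardbp-fl/+ (called cHET, conditional heterozygotes) and 4 mice with Cnp-Cre and Tardbp-fl/fl (called cKO, conditional knockouts), each group with 2 females and 2 males. At P60 there were 3 mice of each genotype, and the controls were labelled female and 74 days old, the cHET male and 60 to 65 days old, and the cKO male and 61 to 64 days old. The cHET and the cKO share the Cre allele, which the controls lack. At P60 the controls also differed from both in age and in labelled sex. In comparisons with P60 controls these cannot be told apart from genotype. The library kit differed between the ages, so levels were not compared between P21 and P60.

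The targeted gene was measured first. Tardbp was 2068, 2236, 2030.2 and 2231 in the P21 cHET libraries 1 to 4 and 1731, 1880.5, 1753 and 1639 in the P21 cKO libraries, a log2 change of -0.29 ± 0.059 (SE, adjusted p = 0.00249). At P60 the log2 change was -0.20 ± 0.062 (SE, adjusted p = 0.0397). Against controls it was -0.37 ± 0.059 (SE, adjusted p = 0.000326) at P21 and -0.14 ± 0.062 (SE, adjusted p = 0.142) at P60, where it did not pass the threshold. The whole cord was sampled and only Cnp-expressing cells lose the gene, so the remaining Tardbp is that of the whole tissue. The genes Ddx3y, Eif2s3y, Kdm5d and Uty of the Y chromosome matched the labelled sex in all 12 P21 libraries, with Ddx3y between 17.0 and 123 in females and between 2401 and 2630.2 in males. They went against the labels at P60, where Ddx3y was between 859 and 1113 in the 3 controls labelled female and between 886 and 1166 in the 6 libraries labelled male. Spinal cord position genes were present, with the sum of 7 Hox genes between 9697 and 12712 at P21, but single Hox genes set some libraries apart. In the male P21 cKO libraries 2 and 3 Hoxc8 was 2343 and 2574, above the 1083 to 1917 of the other 10 P21 libraries, and Hoxc10 was 1018 and 895, below their 1408 to 2285. At P60 Hoxc10 was 1206 in cHET 3 and 1239 in cKO 3, above the 523 to 736 of the other 7 libraries. Their part in the results by library below was not tested.

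Promoter sequences are shown for members described in full below that hold the core of the response element in the 100 bases before the start site, since it is the site at which the complex with Stat2 and Irf9 binds. The core searched was GAAANNGAAA (N, any base) on either strand, and 29 of the 39 members matched an entry of RefSeq promoters on GRCm38.p6, each of 300 bases from 250 before to 50 after a start site. It was found for 16 of these 29 members, against 3.44% of all 32851 promoters of the same length. The 6 windows below are the 100 bases before the start site on the gene's strand, 5′ to 3′, with the cores in capitals. They are chr1:173913047-173913146 (Ifi211), chr5:120907526-120907625 (Oas1a), chr4:156200819-156200918 (Isg15) and chr7:104465194-104465293 (Trim30a) on the minus strand, and chr3:142620563-142620662 (Gbp2) and chr3:142559944-142560043 (Gbp3) on the plus strand.
Ifi211: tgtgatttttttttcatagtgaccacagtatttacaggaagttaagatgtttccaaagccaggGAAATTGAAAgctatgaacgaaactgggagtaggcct
Oas1a: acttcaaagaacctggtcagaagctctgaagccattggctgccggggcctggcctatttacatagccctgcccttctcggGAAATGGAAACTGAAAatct
Isg15: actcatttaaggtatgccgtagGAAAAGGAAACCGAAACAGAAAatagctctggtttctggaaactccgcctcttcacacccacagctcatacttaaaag
Gbp2: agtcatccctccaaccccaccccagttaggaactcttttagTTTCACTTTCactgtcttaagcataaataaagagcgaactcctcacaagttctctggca
Gbp3: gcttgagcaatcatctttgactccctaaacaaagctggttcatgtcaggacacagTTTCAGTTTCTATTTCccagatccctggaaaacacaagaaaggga
Trim30a: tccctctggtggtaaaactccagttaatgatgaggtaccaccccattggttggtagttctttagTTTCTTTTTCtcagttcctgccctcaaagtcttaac
Isg15 carried 3 overlapping cores, starting 66 to 78 bases before the start site, Oas1a and Gbp3 carried 2 overlapping cores each, and Ifi211, Gbp2 and Trim30a carried 1 each. The other members with the core in the 300 bases were Bst2, Ddx58, Eif2ak2, Gbp7, Ifih1, Ifit1, Ifit3, Ifitm3, Rsad2 and Stat2. The gamma-activated site, searched as TTCNNNGAA, was found for 6 of the 29 members (Bst2, Eif2ak2, Gbp7, Ifit2, Ifitm3 and Oas1a), against 8.30% of all promoters. A match is a description of letters in a window and was not tested as a binding site. Members without an entry were Oas2, Mx1, Mx2, Usp18, Ifi27l2a, Ifi204, Dhx58, Rtp4, Parp14 and Parp9.

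At P21 the module rose in the cKO. Of the 39 members, 32 passed the test as higher in cKO than in cHET (adjusted p under 0.05) and none as lower, beside 12.6% of all 17989 tested genes called higher. The median log2 change of the members was 1.39, and that of all tested genes was -0.01. In 27 members every cKO library lay above every cHET library, which held for 12.7% of all tested genes. Against the Tardbp-fl/fl controls 34 members rose and none fell (background 14.6%), with a median log2 change of 1.45, and 28 members did not overlap between the groups (background 15.0%). Ifi211 passed the filter on low values only through the cKO libraries at each age, and without it 31 of the other 38 members rose against cHET and 33 against controls. Neither its own call nor its lack of overlap is a result. All other counts of members, here and below, were taken with Ifi211 kept among the members, unless stated otherwise. The comparisons with cHET and with controls share the cKO libraries. When each P21 library was left out in turn, 23 of the 32 members called against cHET were called every time, and Dhx58, Irf7, Ifit1, Eif2ak2, Isg15, Usp18, Rsad2, Samd9l and Gbp3 were not. In bulk tissue a change in the number of cells of a type and a change in RNA per cell cannot be told apart. Beside this result, 8 of 10 microglial markers rose at P21 (Csf1r by 1.80 ± 0.093 (SE, adjusted p = 6.08e-09)) and P2ry12 fell, and the summed level of the 10 was 12211 to 14065 in cHET and 42047 to 58742 in cKO. Of 6 astrocyte markers 4 rose, and the sum of the 6 was 157699 to 165320 in cHET and 313680 to 360329 in cKO. Most of that sum was Gfap, at 88169 to 102857 in cHET and 233189 to 268919 in cKO, while Slc1a2 and Aldoc overlapped between the groups. Of 7 neuron markers 6 fell, and of 8 oligodendrocyte markers 2 rose and 4 fell, beside 9.97% of all tested genes called lower. The part of these cell types in the rise of the module was not tested. Of 14 lymphocyte and granulocyte markers 8 could be tested and none passed with limma, none of them below an unadjusted p of 0.05, and their sum was 79.0 to 125 in cHET and 89.8 to 117 in cKO, with Ncr1 and Ly6g listed at 0 in all cHET libraries.

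At P60 fewer members were called. In cKO against cHET 12 members rose and none fell, beside 13.4% of all 16833 tested genes called higher, and the median log2 change was 0.31 (all tested genes, 0.00). In 14 members every cKO library lay above every cHET library (background 20.6%). Against P60 controls, which also differed in age and labelled sex, 16 members were higher (background 14.5%). In this comparison 25 members did not overlap (background 22.0%), and the median log2 change was 0.67. Without Ifi211 the counts of members that rose were 11 against cHET and 15 against controls. Of the 12 members called against cHET at P60, 11 were also called at P21, Ifi211 among them. The same share over all tested genes was not taken, so this overlap is not read as particular to the members. When each P60 library was left out in turn, Ifi204, Trim25, Bst2, Ifitm3 and Lgals3bp were called against cHET every time. Ifih1, Oas1a, Herc6, Parp14, Parp9 and Sp100 were not, and Ifi211 is left out of this list. Of the microglial markers 8 of 10 rose at P60, Tmem119 and P2ry12 fell, and their sum was 6103 to 6593 in cHET and 18741 to 24559 in cKO. Of the astrocyte markers 3 of 6 rose, of the neuron markers 4 of 7 fell, and of the oligodendrocyte markers 2 rose and 6 fell. The share of all tested genes called lower was 11.5%.

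**Figure D1:**
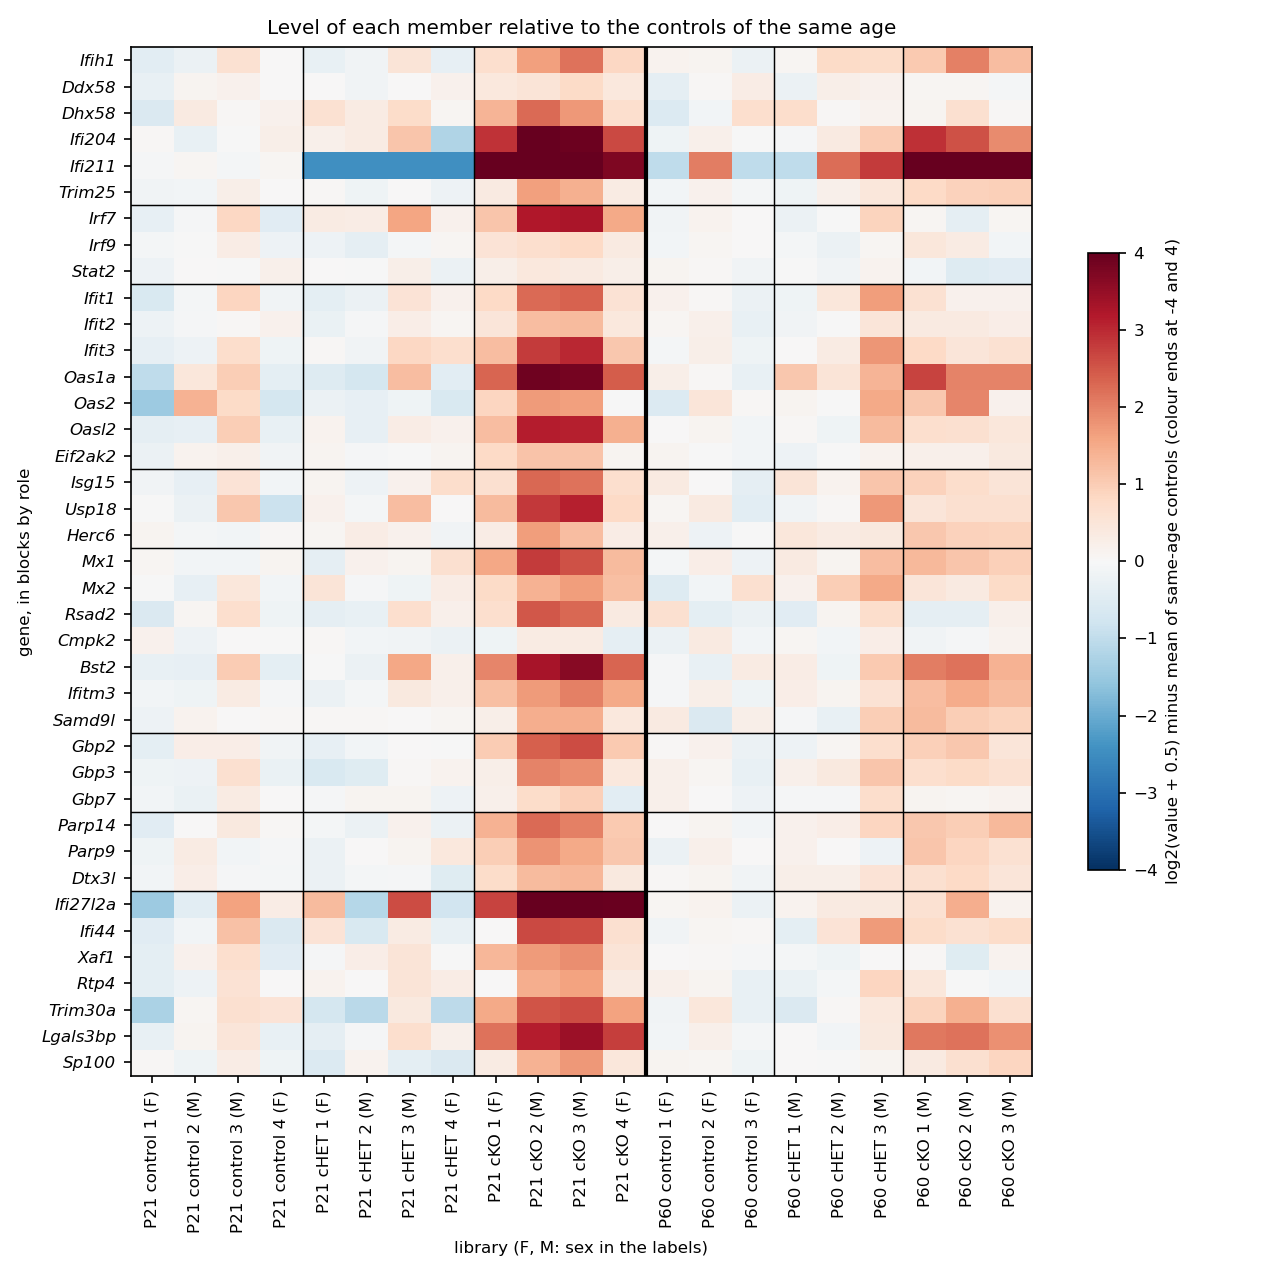
Colour map of the 39 members (rows, in blocks by role) in the 21 libraries (columns), as log2(value + 0.5) minus the mean of the controls of the same age. The P21 cKO libraries 2 and 3 are the reddest columns, and P60 cHET library 3 stands out from the other 2 P60 cHET libraries.

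The libraries did not vary alike within their groups. The mean of log2(value + 0.5) over the 39 members was 6.16, 6.48, 6.94 and 6.38 in P21 controls 1 to 4, and 6.39, 6.29, 6.84 and 6.38 in P21 cHET 1 to 4. It was 7.53, 8.66, 8.70 and 7.49 in P21 cKO 1 to 4. The 2 high cKO libraries were those of the males, and the 2 lower ones, of the females, were still above all 8 other P21 libraries. At P60 the mean was 5.56, 5.73 and 5.49 in controls 1 to 3, 5.61, 5.78 and 6.40 in cHET 1 to 3, and 6.50, 6.49 and 6.30 in cKO 1 to 3. P60 cHET 3 lay at the level of the cKO libraries, above cKO 3.

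**Figure D2:**
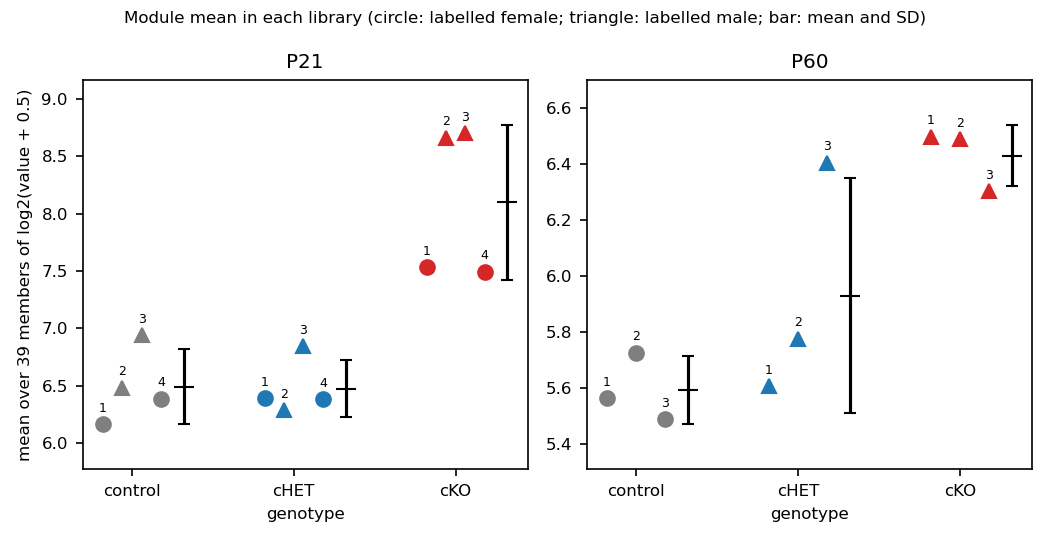
Mean over the 39 members of log2(value + 0.5) in each library by genotype, at P21 (left) and P60 (right, own axis), with replicate numbers and, as a bar, the mean and SD of the group. The male P21 cKO libraries are at 8.66 and 8.70, the female ones at 7.53 and 7.49, and P60 cHET 3 is at 6.40.

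Of the sensors of RNA and DNA, the 5 other than Ifi211 rose at P21 against cHET, and 3 of these 5 rose at P60. Ifi204, a member of the interferon-inducible HIN-200 family whose relatives bind DNA, was 35.8, 28.5, 34.7 and 41.3 in P21 controls 1 to 4, 40.4, 43.5, 75.2 and 14.7 in the cHET and 259.7, 605, 529 and 219 in cKO. At P60 it was 18.7, 24.3 and 20.8 in the controls 1 to 3, 20.4, 27.1 and 43.4 in the cHET and 164, 127 and 79.7 in cKO. The cKO libraries were above all others at both ages, with a log2 change against cHET of 3.28 ± 0.42 (SE, adjusted p = 4.65e-05) at P21 and of 2.02 ± 0.31 (SE, adjusted p = 0.000649) at P60. Ifi211, of the same family and the same cluster on chromosome 1, was 2.16, 2.39, 2.09 and 2.39 in P21 controls, was listed at 0 in all 4 P21 cHET libraries and was 55.2, 155, 148 and 36.4 in cKO. It was listed at 0 in 7 of the 21 libraries, so no fold against P21 cHET is given; leaving it out moved the median log2 change of the members at P21 from 1.39 to 1.37. At P60 Ifi211 was 0, 3.70 and 0 in the controls, 0, 4.26 and 6.58 in the cHET and 47.4, 36.3 and 25.2 in cKO, which was above all other P60 libraries. No test of Ifi211 is given, since it passed the filter only through the group in which it was high. Ifi204 and Ifi211 are closely related in sequence, and how reads were shared between such relatives is not given in the sources used here.

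The cytosolic RNA sensors Ifih1 (MDA5), Ddx58 (RIG-I) and Dhx58 (LGP2) rose at P21 by 1.40 ± 0.32, 0.52 ± 0.11 and 1.08 ± 0.31 on the log2 scale. At P60 Ifih1 rose by 0.91 ± 0.26, whereas Ddx58 (-0.04) and Dhx58 (-0.04) did not pass the test. Ddx58 showed this in its libraries: at P21 cKO libraries had 480.3, 512, 610.0 and 483, all above the cHET range of 326 to 403, and at P60 cKO libraries had 146, 144 and 129, inside the cHET range of 118 to 160. Trim25, a ubiquitin ligase that acts on Ddx58, rose at both ages, by 1.01 ± 0.24 at P21 and 0.73 ± 0.15 at P60.

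Of the 3 members of signalling and transcription, 2 rose at P21 against cHET and none at P60. Irf9, the DNA-binding subunit of the complex that drives the module, was 740.4, 775, 963 and 682 in P21 controls 1 to 4, 687, 604, 745 and 831 in the cHET and 1149, 1262, 1364 and 1006 in cKO. Every cKO library was above every other P21 library, with a log2 change against cHET of 0.74 ± 0.12 (SE, adjusted p = 5e-04). At P60 Irf9 was 319, 286 and 359.8 in the cHET and 465, 424 and 314 in cKO, which overlapped, with a log2 change of 0.31 ± 0.14 (SE, adjusted p = 0.141). That value passed the test only without P60 cKO 3 (adjusted p = 0.0121) and with array weights (adjusted p = 0.0386), among the alternatives run. Irf7, a transcription factor that amplifies the interferon response, was 33.7, 40.4, 75.1 and 30.8 in P21 controls, 52.5, 52.0, 127 and 47.4 in the cHET and 91.2, 396, 407 and 120.3 in cKO. The male cKO libraries were far above all others, while both female cKO libraries lay below cHET 3. The log2 change was 1.68 ± 0.48 (SE, adjusted p = 0.021) against cHET and 2.27 ± 0.48 (SE, adjusted p = 0.00281) against controls. The call against cHET ended without cHET 1, 2 or 4 (adjusted p = 0.0547, 0.0551 and 0.0505) and without cKO 2 or 3 (adjusted p = 0.0724 and 0.0643). At P60 Irf7 was 26.6, 31.9 and 29.2 in the controls, 24.9, 28.8 and 54.0 in the cHET and 31.0, 22.7 and 31.0 in cKO. P60 cKO 1 and 3 lay within the range of the controls. Of the 9 libraries cKO 2 was the lowest and cHET 3 the highest. The log2 change at P60 was -0.27 ± 0.28 (SE, adjusted p = 0.545).

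Stat2, the partner of Irf9 in that complex, was the member called in the test of a difference between the ages. It was 372, 438, 431 and 494 in P21 controls, 432, 430.0, 511 and 369.5 in the cHET and 509, 575, 550.3 and 504 in cKO, and at P60 155, 148 and 132, 142, 131 and 158 and 133, 101 and 106 in the same order. At P21 all cKO libraries were above all controls, but cHET 3 was above cKO 1 and 4, and at P60 cKO 2 and 3 were the lowest of the 9 libraries. The log2 change against cHET was 0.30 ± 0.11 (SE, adjusted p = 0.0542) at P21 and -0.34 ± 0.13 (SE, adjusted p = 0.0842) at P60, neither past the threshold. The difference between the ages was -0.65 ± 0.17 (SE, adjusted p = 0.038), and its call ended without P21 control 2, P21 cHET 1, 2 or 4, P21 cKO 2 or 3, P60 cHET 1 or 3, or P60 cKO 2 or 3. The P21 value passed the threshold without cHET 3 (adjusted p = 0.0206), without control 1 (adjusted p = 0.0435) or without control 4 (adjusted p = 0.0486), and the P60 value without cKO 1 (adjusted p = 0.0311). Other alternatives also passed the P21 value: the authors' test (q = 0.0291), sex as a covariate (adjusted p = 0.0395), a mean of at least 50 (adjusted p = 0.0449) and array weights (adjusted p = 0.0453). Quantile normalization passed the P60 value (adjusted p = 0.0262).

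Among the RNA-binding and RNA-degrading effectors 6 of 7 rose at P21 against cHET, and only Oas1a rose at P60. Oas1a encodes an oligoadenylate synthetase, which senses double-stranded RNA and activates an RNase. It was 10.7, 30.4, 44.3 and 16.7 in P21 controls 1 to 4, 15.4, 13.4, 53.0 and 16.6 in the cHET and 113, 334, 323 and 121 in cKO. At P60 it was 11.1, 9.53 and 7.50 in the controls, 20.2, 13.4 and 24.7 in the cHET and 63.6, 37.7 and 38.4 in cKO. The cKO libraries were above all others at each age. The log2 change against cHET was 3.21 ± 0.52 (SE, adjusted p = 0.000403) at P21 and 1.24 ± 0.31 (SE, adjusted p = 0.0129) at P60, and the P60 call ended without cHET 2 (adjusted p = 0.0505) or cKO 1 (adjusted p = 0.0627). Oasl2, a relative of the same family, was 54.2, 55.3, 137 and 55.9 in P21 controls, 76.5, 55.3, 85.7 and 78.6 in the cHET and 162, 610.4, 596 and 187 in cKO, with no overlap and a log2 change of 2.14 ± 0.42 (SE, adjusted p = 0.00189) against cHET. At P60 Oasl2 was 57.7, 61.0 and 52.6 in the controls, 59.3, 50.2 and 137 in the cHET and 91.8, 89.8 and 77.7 in cKO. All 3 cKO libraries were above all controls, and cHET 3 was above the cKO libraries. The log2 change against cHET was 0.21 ± 0.30 (SE, adjusted p = 0.662), and without cHET 3 it was 0.65 (adjusted p = 0.0145).

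The Ifit genes, whose products bind foreign RNA ends and block its translation, rose at P21 against cHET by 1.48 ± 0.40 for Ifit1, 0.84 ± 0.19 for Ifit2 and 1.69 ± 0.41 for Ifit3. At P60 their log2 changes were -0.34, 0.22 and -0.06, none past the threshold. Ifit3 was 212, 263 and 196 in P60 controls, 222, 277 and 752 in the cHET and 389.6, 307 and 339.9 in cKO, so that cHET 3 was the highest of the 9. Eif2ak2, the kinase PKR, which halts translation on binding double-stranded RNA, rose at P21 by 0.74 ± 0.20, with 146, 185, 185 and 90.0 in cKO against 82.0 to 91.2 in cHET. Oas2 did not pass the threshold at P21 (log2 change 1.39, adjusted p = 0.0786) and was 25.0, 23.1, 25.7 and 19.3 in the cHET and 53.4, 97.0, 93.5 and 29.2 in cKO.

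**Figure D3:**
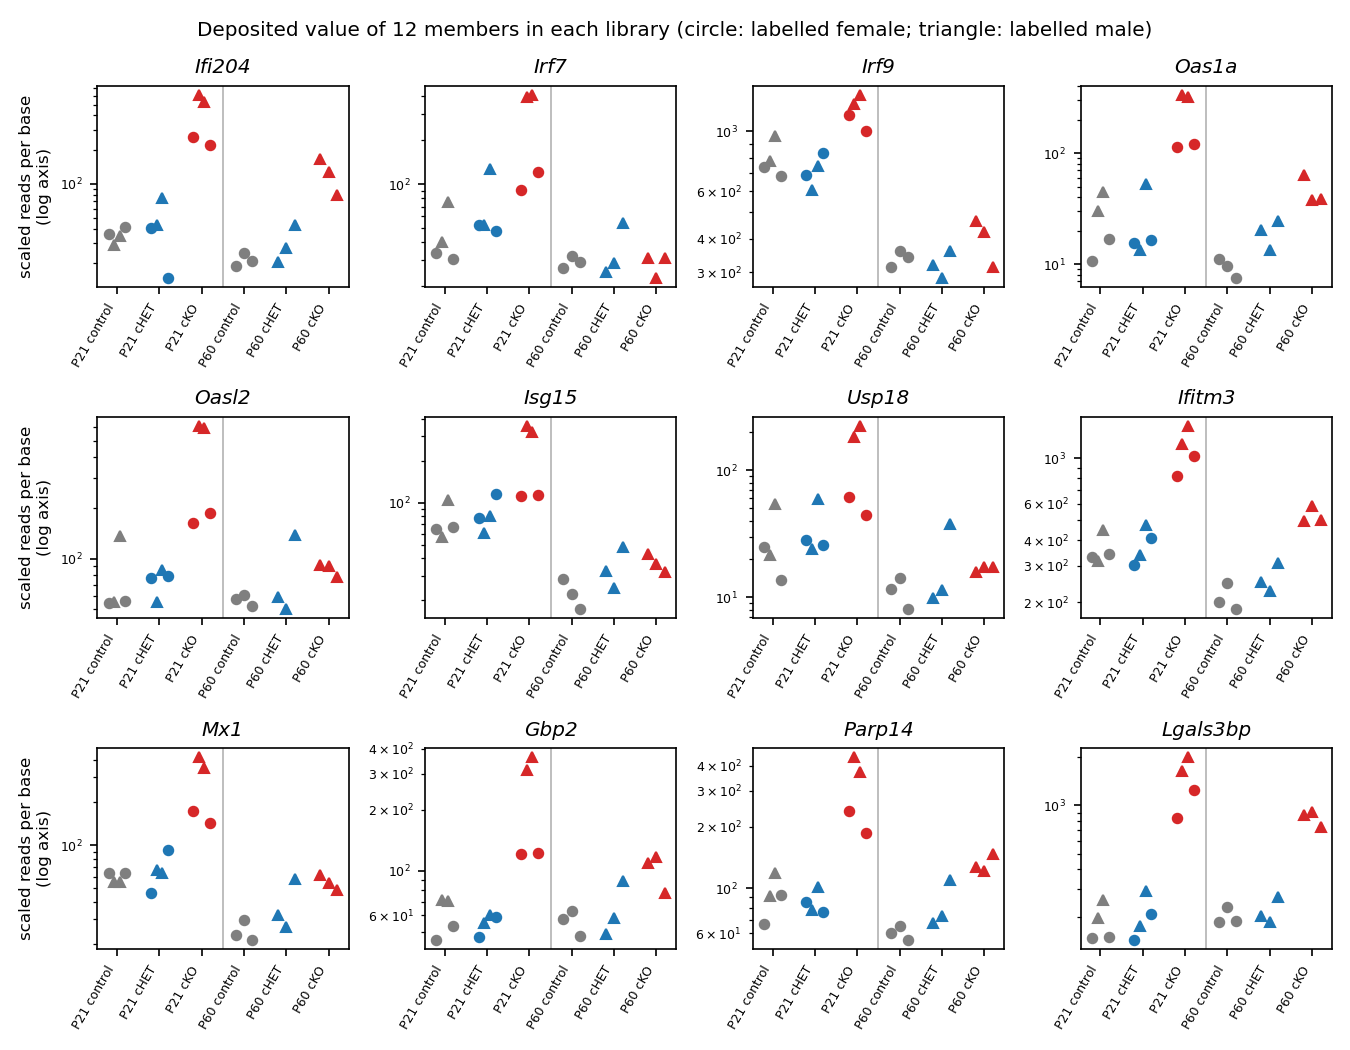
Deposited value (scaled reads per base, log axis) of 12 members in each of the 21 libraries, by group. Ifi204 and Lgals3bp are higher in cKO than in all other libraries of the same age at both ages, whereas Irf7 and Usp18 at P60 are highest in cHET 3.

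In the ISG15 system, a ubiquitin-like tag and its enzymes, Isg15 and Usp18 rose at P21 against cHET. Isg15, the tag itself, was 65.0, 56.6, 104 and 66.4 in P21 controls 1 to 4, 77.1, 61.0, 79.9 and 115 in the cHET and 112, 353, 319.6 and 113 in cKO. The 2 male cKO libraries were well above all others, and the 2 female ones lay below cHET 4. The log2 change against cHET was 1.26 ± 0.36 (SE, adjusted p = 0.0207), and the call ended without cHET 2 (adjusted p = 0.0619), cKO 2 (adjusted p = 0.070) or cKO 3 (adjusted p = 0.0633). Usp18, which removes the tag and dampens the type I receptor, was 25.1, 21.4, 53.9 and 13.7 in P21 controls, 28.1, 24.0, 59.2 and 25.6 in the cHET and 61.5, 181, 222 and 44.5 in cKO. It showed the same order, with the female cKO 4 below cHET 3, and a log2 change of 1.67 ± 0.52 (SE, adjusted p = 0.0311). That call ended without cHET 1, 2 or 4 (adjusted p = 0.0701, 0.0799 and 0.0656) and without cKO 2 or 3 (adjusted p = 0.0984 and 0.0935). At P60 Isg15 was 28.5, 22.3 and 17.3 in the controls, 32.3, 24.6 and 48.4 in the cHET and 42.7, 36.3 and 31.8 in cKO, and Usp18 was 11.6, 14.3 and 8.12, 9.89, 11.4 and 37.9 and 15.8, 17.4 and 17.4. For both genes all cKO libraries were above all controls and below cHET 3, and neither passed the test against cHET (log2 change 0.12 and 0.05) or against controls (0.71 and 0.59). Herc6, the mouse ligase for the tag, was the member called at P60 and not at P21 against cHET, with log2 changes of 0.59 ± 0.17 (SE, adjusted p = 0.0302) at P60 and 0.76 ± 0.27 (SE, adjusted p = 0.0529) at P21. The difference of its changes between the ages was -0.18 ± 0.35 (SE, adjusted p = 0.889). The P60 call ended without cHET 1, 2 or 3 (adjusted p = 0.0632, 0.0868 and 0.061) and without cKO 1 or 2 (adjusted p = 0.105 and 0.0707). At P21 the change passed without cKO 1 (adjusted p = 0.0192) or cKO 4 (adjusted p = 0.0171). It also passed there with array weights (adjusted p = 0.00839) and with sex as a covariate (adjusted p = 0.0297). The authors' test gave the reverse calls, with q = 0.0439 at P21 and q = 0.0705 at P60.

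Of the 7 restriction factors 6 rose at P21 and 2, Ifitm3 and Bst2, at P60. Ifitm3, a membrane protein that blocks virus entry, was 332, 316, 449 and 342 in P21 controls 1 to 4, 303, 338, 472 and 409.6 in the cHET and 817, 1167, 1430.0 and 1027 in cKO. At P60 it was 200.4, 247 and 185 in the controls, 250.3, 227 and 311 in the cHET and 496, 584 and 503 in cKO. The cKO libraries were above all others at both ages, with a log2 change against cHET of 1.53 ± 0.17 (SE, adjusted p = 1.3e-05) at P21 and 1.01 ± 0.14 (SE, adjusted p = 0.000273) at P60. Bst2 (tetherin), which holds budding virus at the cell surface, rose by 2.43 ± 0.44 at P21 and 1.48 ± 0.32 at P60. It was 28.2, 20.5 and 47.5 in P60 cHET and 95.6, 105 and 61.5 in P60 cKO. Mx1, a dynamin-like antiviral GTPase whose gene is defective in most laboratory strains, was 63.1, 55.1, 54.9 and 63.9 in P21 controls, 46.0, 66.9, 63.7 and 92.5 in the cHET and 173, 416, 347 and 144 in cKO, without overlap. Its log2 change against cHET was 1.90 ± 0.30 (SE, adjusted p = 0.000319). At P60 Mx1 was 23.4, 29.6 and 21.5 in the controls, 32.0, 26.3 and 58.1 in the cHET and 61.3, 53.6 and 48.5 in cKO. It passed the test against controls (1.12 ± 0.28 (SE, adjusted p = 0.0119)) and not against cHET (0.56 ± 0.28 (SE, adjusted p = 0.175)), where cHET 3 lay within the cKO range. Without cHET 3 the latter log2 change was 0.89 (adjusted p = 0.0168).

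Mx2 rose at P21 by 1.11 ± 0.20, Rsad2 (viperin) by 1.40 ± 0.44 and Samd9l by 0.84 ± 0.24. None of the 3 passed at P60, with log2 changes of -0.35, -0.29 and 0.83. Rsad2 and Cmpk2 are neighbours on chromosome 12 that are usually induced together. Cmpk2, a nucleotide kinase, was 908, 799, 783 and 735 in P21 cHET and 779.8, 1090.0, 1087 and 681 in P21 cKO, with overlap and a log2 change of 0.15 ± 0.14 (SE, adjusted p = 0.512). Rsad2 was 57.8, 59.4, 117 and 85.3 and 119, 411, 367 and 95.2 in the same libraries, with the male cKO libraries high and the female ones within or just above the cHET range.

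The guanylate-binding proteins, GTPases that attack the vacuoles of intracellular pathogens, had 2 of 3 members called at P21 and none at P60 against cHET. Gbp2 was 45.4, 71.2, 71.1 and 53.2 in P21 controls 1 to 4, 47.0, 54.8, 60.0 and 58.8 in the cHET and 121, 314, 363 and 122 in cKO, without overlap. The log2 change was 1.87 ± 0.32 (SE, adjusted p = 0.000651). At P60 Gbp2 was 57.7, 63.0 and 47.3 in the controls, 48.7, 58.6 and 88.9 in the cHET and 109, 117 and 77.4 in cKO. It was called against controls (0.83 ± 0.24 (SE, adjusted p = 0.0234)) and not against cHET (0.65 ± 0.24 (SE, adjusted p = 0.0697)). The call against cHET appeared without cHET 3 (adjusted p = 0.0132) or cKO 3 (adjusted p = 0.0349), and the call against controls ended without cKO 1 (adjusted p = 0.0776), cKO 2 (adjusted p = 0.0893) or control 3 (adjusted p = 0.0882). Gbp3 was 72.1, 71.0, 128 and 67.5 in P21 controls, 52.8, 57.5, 84.0 and 90.3 in the cHET and 96.5, 326, 295 and 108 in cKO. Its cKO libraries were above all cHET libraries, the females by little, and overlapped control 3. The log2 change against cHET was 1.35 ± 0.37 (SE, adjusted p = 0.0166), lost without cHET 1 (adjusted p = 0.0505), cKO 2 (adjusted p = 0.0569) or cKO 3 (adjusted p = 0.0515). At P60 Gbp3 was 35.1, 32.3 and 24.4 in the controls, 34.6, 39.7 and 65.9 in the cHET and 48.1, 51.5 and 46.2 in cKO, with a log2 change against cHET of 0.11 ± 0.24 (SE, adjusted p = 0.79). Gbp7 passed at neither age (log2 change 0.38 at P21 and -0.10 at P60).

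All 3 members of the ADP-ribosylation group rose at P21, and Parp14 and Parp9 rose at P60. Parp14, a mono-ADP-ribosyltransferase, was 66.2, 91.7, 119 and 92.6 in P21 controls 1 to 4, 85.8, 77.6, 102 and 76.4 in the cHET and 239, 439.8, 369.9 and 187 in cKO. At P60 it was 60.3, 65.4 and 55.6 in the controls, 67.5, 73.0 and 109 in the cHET and 127, 121 and 148 in cKO. The cKO libraries were above all others at each age, with log2 changes against cHET of 1.78 ± 0.24 (SE, adjusted p = 8.82e-05) at P21 and 0.69 ± 0.18 (SE, adjusted p = 0.0168) at P60. The P60 call ended without cHET 1 (adjusted p = 0.0686), cHET 2 (adjusted p = 0.0632) or cKO 3 (adjusted p = 0.0596). Dtx3l, a ubiquitin ligase that works in a complex with Parp9, was 187, 241, 195 and 191 in P21 controls, 170.1, 191, 194 and 146 in the cHET and 334, 488, 512 and 263 in cKO, without overlap. The log2 change was 1.14 ± 0.19 (SE, adjusted p = 0.000424). At P60 Dtx3l was 189, 194 and 163 in the controls, 215, 212 and 265 in the cHET and 281, 316 and 252 in cKO, called against controls (0.63 ± 0.12 (SE, adjusted p = 0.00295)) and not against cHET (0.29 ± 0.12 (SE, adjusted p = 0.11)). Without cHET 3 the P60 change against cHET passed (adjusted p = 0.0397). Parp9 rose by 1.25 ± 0.21 at P21 and 0.86 ± 0.21 at P60. Parp9 and Dtx3l overlap on opposite strands of chromosome 16, and whether reads were assigned by strand is not given in the sources used here.

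The other 7 members gave 5 calls at P21 and 2 at P60. Lgals3bp, a secreted galectin-binding glycoprotein, was 149, 198, 258 and 150.4 in P21 controls 1 to 4, 145, 176, 293 and 212 in the cHET and 831, 1631, 1993 and 1251 in cKO. At P60 it was 188, 234 and 191 in the controls, 205, 188 and 267 in the cHET and 872, 913 and 728 in cKO. There was no overlap at either age, and the log2 change against cHET was 2.76 ± 0.27 (SE, adjusted p = 2.8e-06) at P21 and 1.94 ± 0.14 (SE, adjusted p = 2.73e-06) at P60. Trim30a, a tripartite-motif protein that restrains inflammatory signalling, was 7.19, 19.2, 28.1 and 26.8 in P21 controls, 11.0, 8.33, 24.0 and 8.39 in the cHET and 52.6, 105, 114 and 56.3 in cKO, without overlap. Its log2 change was 2.67 ± 0.45 (SE, adjusted p = 0.000586). At P60 Trim30a was 10.2, 15.7 and 9.24 in the controls, 7.50, 11.7 and 15.4 in the cHET and 21.5, 31.7 and 18.2 in cKO, again without overlap, and the log2 change of 1.03 ± 0.35 (SE, adjusted p = 0.0553) missed the threshold. It passed without cHET 3 (adjusted p = 0.037). Ifi27l2a, a small interferon-induced protein, had the highest fitted change of the 38 members other than Ifi211 at P21, 3.62 ± 0.81 (SE, adjusted p = 0.00477), with 24.0, 4.14, 61.9 and 5.54 in the cHET and 65.8, 262, 359 and 157 in cKO. At P60 it was 18.1, 33.2 and 12.9 in cKO against 12.9 to 15.5 in cHET, which did not pass. Sp100, a component of nuclear bodies, rose at both ages, by 1.32 ± 0.28 and 0.59 ± 0.15, and Xaf1, a pro-apoptotic factor, rose at P21 by 1.17 ± 0.29. Ifi44 (log2 change 1.48, adjusted p = 0.0774) and Rtp4 (log2 change 0.62, adjusted p = 0.189) did not pass at P21. Ifi44 was 46.2, 20.2, 39.5 and 25.3 in the cHET and 31.4, 196, 193 and 48.8 in cKO, with both female libraries within or near the cHET range.

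**Figure D4:**
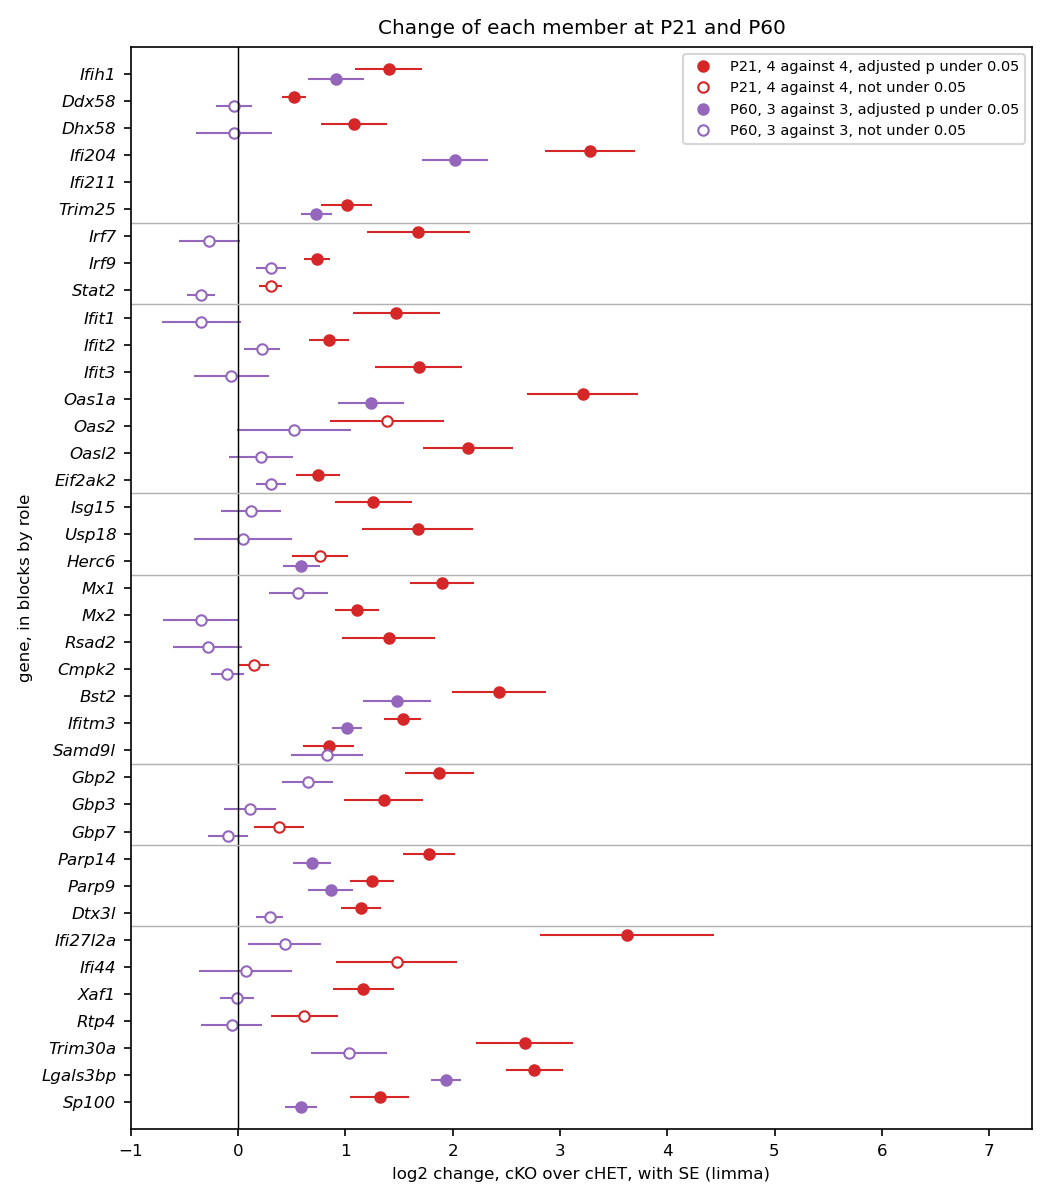
Log2 change (cKO over cHET, limma) with its SE for each member at P21 (red, 4 against 4 libraries) and P60 (purple, 3 against 3), filled where the adjusted p is under 0.05. Ifi211, which passed the filter only through the cKO libraries, is not drawn; 31 of the 38 points at P21 and 11 at P60 passed the threshold.

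The P21 comparison was then read by sex, and the labels give 2 females and 2 males in each genotype. Earlier results of these same data had shown interferon genes higher in the male cKO libraries. The split and its tests were chosen with that known, so they describe that pattern and are no independent support for it. In all 39 members both male cKO libraries were above both female cKO libraries, which held for 23.7% of all tested genes, and the reverse order held for 0 members and 17.2% of genes. The median log2 difference of male over female cKO was 1.18, and 3 members passed the test (background 0.100%). These were Trim25 (1.19 ± 0.13 (SE, adjusted p = 0.00588)), Gbp2 (1.47 ± 0.20 (SE, adjusted p = 0.0181)) and Samd9l (1.13 ± 0.17 (SE, adjusted p = 0.0312)). Trim25 was 809, 1967, 1699 and 793 in cKO 1 to 4, where 2 and 3 are the males, against 553 to 650.2 in cHET. Among males 37 members were higher in cKO than in cHET (background 8.99%), with a median log2 change of 1.94. Among females 17 were higher (background 7.18%), with a median of 0.83. Without Ifi211 these counts were 36 in males and 16 in females. Both female cKO libraries were above all 4 cHET libraries in 27 members, which held for 18.1% of tested genes. The median difference of male over female was 0.18 in cHET and 0.38 in controls. No member passed there with limma (background 0.0167% called higher in each), and 2 members in cHET and 8 in controls were under an unadjusted p of 0.05. The share of all tested genes under that unadjusted p is not given for these comparisons.

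The sex difference of the cKO-over-cHET change was itself tested. It was positive for 38 of 39 members, with a median of 0.82, but no member passed with limma (background 0%), while 22 members were under an unadjusted p of 0.05 (background 6.53% of genes). For Trim25 the difference was 1.19 ± 0.19 (SE, adjusted p = 0.18), and for Ifi44 it was 2.56 ± 0.66 (SE, adjusted p = 0.532). Each sex and genotype had only 2 libraries. The summed microglial markers were 58742 and 55857 in the male cKO libraries and 44566 and 42047 in the female ones. The male cKO libraries also differed from the female ones in cord position genes, with Hoxa9 at 649 and 673 against 929 and 915, and Hoxc8 at 2343 and 2574 against 1436 and 1189. The part of neither was tested. Without the male cKO libraries, an alternative chosen after seeing the data, 18 members rose against cHET (background 9.18%) and 21 against controls (background 11.1%). Without the female ones 38 rose (background 11.6%) and 37 (background 13.0%).

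The module was high in P60 cHET library 3. It was the highest of the 3 cHET libraries in 34 of 39 members (33.1% of tested genes) and above all controls and both other cHET libraries in 31 (19.0% of genes). It was above every other P60 library, cKO included, in 14 members: Irf7, Stat2, Ifit1, Ifit2, Ifit3, Oasl2, Isg15, Usp18, Mx2, Rsad2, Gbp3, Gbp7, Ifi44 and Rtp4, against 10.6% of tested genes. Ifit1, for example, was 77.9, 122 and 285 in the cHET and 134, 98.4 and 100.3 in cKO. Every cKO library stayed above all cHET libraries, library 3 included, in the 12 members called against cHET and in Eif2ak2 and Trim30a. The 12 include Ifi211, which passed the filter only through the cKO libraries, so its separation is not a result. The microglial marker sum of cHET 3 was 6593, against 6103 and 6315 in cHET 1 and 2 and at least 18741 in cKO. Hoxc10 was 1206 in cHET 3 against 685 and 607 in cHET 1 and 2, and Hoxc8 was 1034 against 1476 and 1415; their part was not tested. Leaving cHET 3 out raised the number of members called against cHET from 12 to 17, while the share of all tested genes called higher was 13.4% with it and 12.9% without it. In cHET against controls no member passed at P60 with limma (background 0.0119%), 6 were under an unadjusted p of 0.05 (background 5.42%), and the median log2 change was 0.30. At P21 none passed either (background 0.00556%), 1 was under an unadjusted p of 0.05 (background 7.14%), and the median was 0.04. The authors' deposited tables also held 0 members at a q under 0.05 in cHET against controls at either age.

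The change of cKO over cHET was smaller at P60 than at P21 in the fitted value of all 39 members, with a median difference of -1.09 (-1.02 without Ifi211; all tested genes, 0.01). The test of this difference passed for 1 member, Stat2 (background 1.71%), and 26 members were under an unadjusted p of 0.05 (background 15.0%). The count rests on few libraries: it was 0 without P21 control 2, P21 cHET 1, 2 or 4, P21 cKO 2 or 3, P60 cHET 3, or P60 cKO 2 or 3. It was 2 without P60 control 1 or 3 or P60 cHET 1, 3 without P21 cHET 3, 4 without P21 cKO 1, 6 without P21 cKO 4, and 7 with array weights. Irf7 had a difference of -1.95 ± 0.66 (SE, adjusted p = 0.126), and Ifi27l2a of -3.19 ± 1.07 (SE, adjusted p = 0.124). Samd9l had the smallest, -0.01 ± 0.43 (SE, adjusted p = 0.993). The P60 cHET and cKO mice were all labelled male, and set beside them the males of P21 had a median log2 change of 1.94 and the P60 males 0.31. Age and library kit cannot be told apart in these differences.

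The rest of the pathway was read from lists named by role. In cKO against cHET 12.6% of all tested genes were called higher and 9.97% lower at P21. At P60 the shares were 13.4% and 11.5%. Of 15 listed interferon genes 4 had a value in each library. Ifnb1 was listed at 0 in all but P21 control 3 (1.01), Ifng in all but P21 cHET 2 (1.25) and P60 cHET 1 (0.475), and Ifnk did not exceed 3.27. Ifnz was 0, 5.25, 6.40 and 0 in P21 cHET and 7.55, 8.17, 4.24 and 3.57 in P21 cKO, which did not pass (1.77 ± 1.10 (SE, adjusted p = 0.291)). Of 9 receptor and kinase genes 5 rose and 1 fell at P21, and 4 rose at P60. Il10rb, a chain of the lambda interferon receptor, rose by 1.07 ± 0.083 at P21 and 1.59 ± 0.14 at P60, and Ifnar2, a chain of the type I receptor, by 0.41 ± 0.088 and 0.85 ± 0.10. Jak2 fell at P21 (-0.19 ± 0.056 (SE, adjusted p = 0.024)).

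Nucleic-acid sensors outside the module and their adaptors rose in 12 of 14 cases at P21 and in 11 of 14 at P60. The share of all tested genes called higher, for these lists too, was 12.6% at P21 and 13.4% at P60. The endosomal RNA receptor Tlr7 rose by 2.76 ± 0.32 at P21 and 3.01 ± 0.28 at P60, its chaperone Unc93b1 by 1.41 ± 0.11 and 1.88 ± 0.076, and the cytosolic DNA sensor Mb21d1 (cGAS) by 1.23 ± 0.18 at P21. Of 9 other transcription factors 3 rose at each age. Irf8, a factor of macrophages and microglia, rose by 2.97 ± 0.15 and 2.64 ± 0.24. Of 11 inhibitors with a value, 7 rose at P21, among them Socs3 (2.02 ± 0.24 (SE, adjusted p = 2.82e-05)), and at P60 4 rose and Adar, the RNA-editing enzyme, fell (-0.22 ± 0.068 (SE, adjusted p = 0.0396)). Of other interferon-stimulated genes 32 of 48 tested rose at P21 and 15 of 46 at P60, with median log2 changes of 0.98 and 0.34. Slfn2, a Schlafen gene of immune cells, rose by 3.20 ± 0.26 at P21 and 1.67 ± 0.28 at P60, a difference between the ages of -1.53 ± 0.40 (SE, adjusted p = 0.0354). Ifi207, of the Ifi204 family, rose by 5.14 ± 0.44 and 4.44 ± 0.46.

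The members share positions. In the GENCODE M21 annotation 19 of the 39 members lie within 1 Mb of another member: Ifi204 and Ifi211 on chromosome 1, Gbp2, Gbp3 and Gbp7 on chromosome 3, Oas1a and Oas2 on chromosome 5, Irf7 and Ifitm3 on chromosome 7, Rsad2 and Cmpk2 on chromosome 12, Parp9, Parp14 and Dtx3l on chromosome 16, Mx1 and Mx2 also on chromosome 16, and Ifit1, Ifit2 and Ifit3 on chromosome 19. Within these clusters the calls differed at P60, where Ifitm3 rose and Irf7 did not, and Oas1a rose and Oas2 did not; these differences between genes were not tested. A gene on the opposite strand overlaps 12 members, among them Irf7 (Phrf1) and Dhx58 (Dhx58os), and reads of such pairs cannot be told apart where strand was not used.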

How the data were processed

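RNA of frozen spinal cord was sequenced from 21 mice, with the Illumina TruSeq kit at P21 and the NEXTflex Rapid Directional kit at P60, per the labels. The authors deposited a signal per gene and library, given as normalized scaled reads per base, and per the submitters' processing notes the tools were kallisto 0.43.0 and sleuth 0.28.1 with GRCm38; what each tool did and the annotation release are not stated there. The authors also deposited tables of comparisons, in which the natural log of value + 0.5 is the scale of the effect and each gene has its p-value with a q-value beside it. These served as an alternative test. Read totals cannot be recovered, so no interval from counts is given. Genes were named by Ensembl identifier (25039 of 25127). Of the members, 36 gave the mean of the authors' table at each age within 1e-06, Mx2 and Dtx3l did not, and Ifi211 was not in those tables.

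Values were taken to log2(value + 0.5), so changes of low genes are understated. Tested genes had a value of 5 or more in 4 libraries (P21) or 3 libraries (P60). Each age had 1 fit of its 3 genotypes in limma-trend (limma 3.58.1, R 4.3.3), two-sided, and p-values were adjusted by Benjamini and Hochberg over all tested genes, never over the members. SE is the moderated standard error. The age difference is the interaction in a fit of the 6 groups, and the sex difference that in a fit of 6 genotype-by-sex groups at P21. The fits were tested on simulated data with true changes of 0.5, 1 and 2 on the log2 scale. For P21 cKO against cHET 46.3%, 82.1% and 97% of these were recovered. For the age difference 25.8%, 68.7% and 86.2% were recovered, and for the sex difference 0%, 34.8% and 77.3%. Noise was drawn for each gene on its own, so members that vary together were not simulated. Figures used matplotlib 3.10.9.

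The members, the other lists and the tests were chosen with earlier results of these data known. By the rule for named genes, in each of 8 roles the 2 members with the smallest p at P21 against cHET, and any member called in the age or sex difference, are given in full; other genes named, and the patterns by library, were chosen after their values were seen. Results of a single listed pathway gene are not reported here. The alternatives were other pseudocounts, filters, scalings, array weights, 2 groups only, sex as a covariate, genes equal in both files, the authors' test and leaving out each library.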

Additional observations from a re-analysis of the deposited data

Results flagged for a closer look

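In 54 groups of 4 libraries at P21 (17 members and the module mean, in 3 genotypes), 7 had 1 library far from the other 3; chance gives about 1 in 20 independent groups, and these groups are not independent, since the members were measured in the same 12 libraries. P21 cHET 3 was the high library for Irf7 (127.1, the others 47.4 to 52.5), Oas1a (53.0, the others 13.4 to 16.6), Usp18 (59.2, the others 24.0 to 28.1) and Trim30a (24.0, the others 8.33 to 11.0). P21 control 3 was the high library for Oasl2 (136.6, the others 54.2 to 55.9) and Gbp3 (127.6, the others 67.5 to 72.1). P21 control 2 was the high library for Dtx3l (240.8, the others 186.5 to 194.8). Library cHET 3 was the highest of its 4 in 24 of the 39 members (22.2% of tested genes), and control 3 in 26 (20.3%). Both are from males.

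Stat2 is given again because its change of cKO over cHET passed the test of a difference between the ages. The difference was -0.65 on the log2 scale, with an adjusted p of 0.038 from limma. Stat2 was higher in cKO at P21 and lower at P60, and neither change passed on its own. It was 1 member of 39, beside 1.49% of all tested genes called higher and 1.71% called lower in the same test. The call ended with no filter (adjusted p = 0.0513), with array weights (adjusted p = 0.0508) and without any 1 of several libraries, named above.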

How the results depend on the processing

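No called change of a member turned its direction under any alternative. Testing only genes with a mean of at least 50, which leaves fewer members in the test, gave 7 members higher in P60 cKO than cHET and 10 higher than controls. Without the male P21 cKO libraries, chosen after seeing the data and with fewer samples, 18 members rose at P21 against cHET (background 9.18%) and 21 against controls (background 11.1%). The age difference was called for 0 members with no filter, 2 with a pseudocount of 5, 2 with the mean of at least 50, 2 with quantile normalization and 7 with array weights, and for 0 to 6 with 1 library left out; the cause was not tested. Leaving out 1 library gave 23 to 35 members higher at P21 against cHET (23 without cKO 2), 29 to 37 against controls, 8 to 17 at P60 against cHET (8 without cHET 1 or cKO 1, 17 without cHET 3) and 13 to 19 against controls. The authors' test, over the 38 members in their tables, called 33, 33, 11 and 17 higher in the same order, and 1 member lower, Stat2 at P60 against controls (log2 change -0.36, q = 0.0436 in the authors' deposited table; limma gave an adjusted p of 0.0718). With quantile normalization limma also called Stat2 lower at P60, against cHET (adjusted p = 0.0262) and against controls (adjusted p = 0.0206). Without P60 cKO 1 it did so too (adjusted p = 0.0311 and 0.027). No paired analysis was possible because the labels give mouse identifiers and no replicate numbers shared between groups. For most of these alternatives the share of all tested genes called is not given, so their counts describe the members only. The depth is unknown, and 2 to 4 libraries a group limit the precision.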
